A study of Mus musculus with 10 samples.

Results

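Col4a2, Col15a1, Vtn and Mmp13 encode proteins of the extracellular matrix or an enzyme that cuts it, and their mRNA was measured here in heart tissue of young and aged mice. Each gene had 1 named probe, and other probes for these genes on the array were not analysed here. The 4 probes were taken by gene symbol from a supplementary sheet of the study, whose copy named 690 mRNA probes lower in aged hearts, out of 22359 mRNA probes and 60641 lncRNA and mRNA probes on the array. Probes of that sheet were selected on their difference between the ages in these same samples, so the age differences of the 4 genes, and of every other gene named from it, are given as descriptions with their SE and no p. Where such a gene is said to be called lower, this states only that it passed the same limits as the rest of the array, and the selection makes it no independent evidence.

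The series compared C57BL/6 wild-type male mice at 3 months (3m, 5 hearts) with those at 20 months (20m, 5 hearts), with 1 mouse per 1-colour array and no treatment. Mice were housed singly, and the young and the old mice came from different suppliers, so age and supplier cannot be told apart. The 75th percentile of the scanner intensity was 129 to 209 in 3m and 109 to 144 in 20m, and 61.3% to 73.3% and 64.0% to 67.3% of probes were well above background. Of 10 cardiomyocyte markers, 0 had a named probe, so the heart label could not be checked against them. The log2 ratio of the 3′ to the 5′ control spots for Gapdh was 1.70 to 2.17 in 3m and 2.33 to 3.06 in 20m, without overlap.

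The basement membrane is a thin sheet of matrix that wraps each cardiomyocyte and underlies the endothelium of every cardiac vessel. Its scaffold is a network of collagen IV, in which the chains encoded by Col4a1 and Col4a2 are wound together, and collagen XV, the product of Col15a1, links such sheets to the interstitial collagen around them in heart and skeletal muscle. Vitronectin, the product of Vtn, is an adhesive glycoprotein of plasma and matrix that binds integrins and the plasminogen activator inhibitor PAI-1, and Mmp13 encodes collagenase-3, a secreted metalloproteinase that cleaves fibrillar collagens.

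The probe sequences are shown because each gene was read here by this single stretch of bases. They are given 5′ to 3′ as listed in the study's sheet. For Mmp13 only the first 30 of 60 bases are printed.
Col4a2: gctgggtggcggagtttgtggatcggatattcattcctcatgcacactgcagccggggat
Col15a1: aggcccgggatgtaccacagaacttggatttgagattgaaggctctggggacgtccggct
Vtn: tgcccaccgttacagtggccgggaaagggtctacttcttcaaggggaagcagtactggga
Mmp13: gtgaaaagctattgtgtcaagagacagtgt
The probes of Col4a2, Col15a1 and Vtn each held 56.7% G and C, more than 82.5% of the 690 named probes, whereas the Mmp13 probe held 33.3%, more than 16.8% of them. The Mmp13 probe thus differed from the others in base composition. Their positions within the transcripts were not determined here.

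All 4 genes were lower in aged hearts, by 2.92-fold for Vtn, 3.27-fold for Col15a1, 3.99-fold for Col4a2 and 4.37-fold for Mmp13. The value for Col15a1 is uncertain, since its probe was well above background in only 1 of 5 aged hearts. Levels are quantile-normalized log2 intensities with a floor of 5 on the linear scale, and a call needed an adjusted p under 0.05 by limma with Benjamini-Hochberg adjustment and a log2 difference of at least 1. By this rule 4 of the 4 genes were called lower, where 9.65% of the 16720 tested mRNA probes were called lower and 4% higher. Every 20m heart lay below every 3m heart for Col4a2, Col15a1 and Vtn, as for 16.2% of tested mRNA probes, and not for Mmp13, while 8.28% of tested mRNA probes had every 20m heart above every 3m heart. Because the sheet had selected these genes for being lower, both counts follow from the selection. In bulk tissue such as this, fewer cells of a type and less RNA per cell cannot be told apart.

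**Figure D1:**
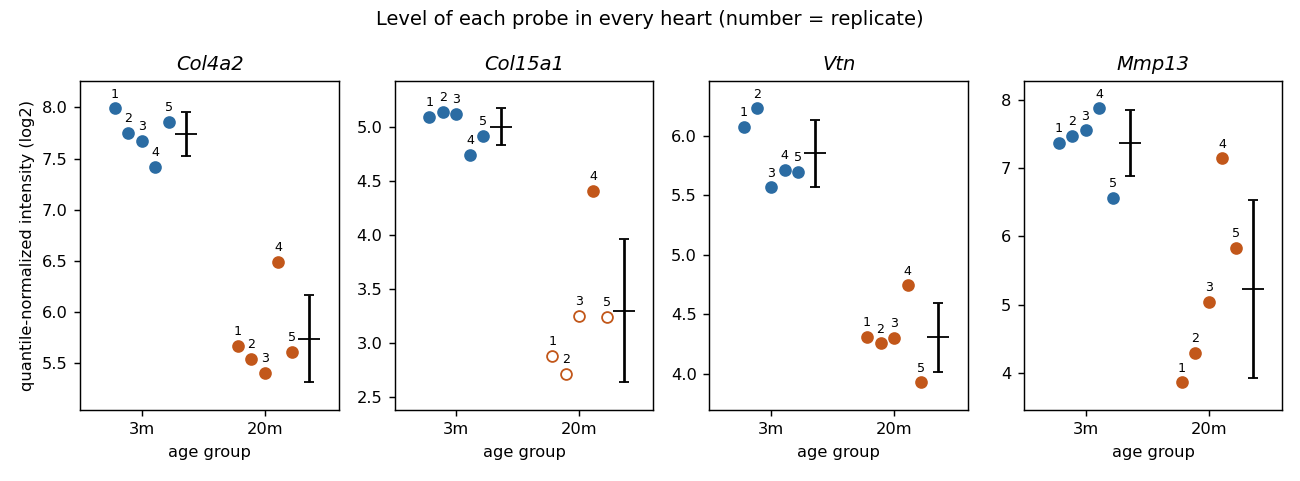
Quantile-normalized log2 intensity (vertical axes, scaled separately for each gene) of the 4 probes in the 5 hearts of each age group (horizontal axes). Each point is 1 heart numbered by replicate, open points were not well above background, and the bars give mean ± SD; 20m replicate 4 is the highest aged heart in all 4 panels, at 7.14 for Mmp13 within the range of the young hearts.

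Col4a2 (ENSMUSG00000031503, chr8:11312805-11449287, plus strand of GRCm38.p6) encodes a chain of the collagen IV network, the structural core of all basement membranes. Its log2 level was 7.99, 7.75, 7.67, 7.42 and 7.86 in 3m replicates 1 to 5, and 5.67, 5.54, 5.40, 6.49 and 5.61 in 20m replicates 1 to 5. The young hearts lay close together, the aged hearts lay lower, and replicate 4 stood above the other 4 aged hearts. The mean was 7.74 ± 0.21 (SD, n = 5) in 3m and 5.74 ± 0.43 in 20m, a log2 difference of -1.996 with SE 0.21. A distance of 0.93 separated the lowest young from the highest aged heart. The probe was well above background on all 10 arrays. With normexp background correction and an added offset of 50 the log2 difference was -1.26. On the scanner's own scale, before normalization between arrays, its intensity was 189 to 280 in young and 34.0 to 72.5 in aged hearts.

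Col15a1 (ENSMUSG00000028339, chr4:47207655-47313167, plus strand) encodes collagen XV, which lies at the outer face of the basement membrane. Its log2 level was 5.10, 5.15, 5.12, 4.75 and 4.92 in 3m replicates 1 to 5, and 2.88, 2.71, 3.25, 4.41 and 3.24 in 20m replicates 1 to 5. The groups did not overlap, with 0.33 between the lowest young heart and aged replicate 4. That aged heart was also the only 1 of 5 in which the probe was well above background, against 5 of 5 young hearts, so the probe passed the detection filter mainly through the young group. The mean was 5.01 ± 0.17 (SD, n = 5) in 3m and 3.30 ± 0.66 in 20m, a log2 difference of -1.71 with SE 0.27. The aged mean and SD rest mainly on values not well above background, so this difference and its SE are uncertain. The scanner intensity was 28.6 to 47.2 in young hearts and 6.78, 7.19, 7.94, 8.46 and 17.0 in aged hearts. The difference was -0.67 with a floor of 20 and -0.40 with normexp background correction and an added offset of 50. With the Gapdh ratio as a covariate it was -1.27. Col15a1 was not called under any of these settings.

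Vtn (ENSMUSG00000017344, chr11:78499120-78502325, plus strand) encodes vitronectin, and its mRNA marks pericytes in several tissues. Its log2 level was 6.07, 6.23, 5.56, 5.71 and 5.69 in 3m replicates 1 to 5, and 4.31, 4.26, 4.30, 4.74 and 3.93 in 20m replicates 1 to 5. Both groups were compact, and 0.82 separated the lowest young from the highest aged heart. The mean was 5.85 ± 0.28 (SD, n = 5) in 3m and 4.31 ± 0.29 in 20m, a log2 difference of -1.55 with SE 0.19. The scanner intensity was 59.7 to 73.9 in young and 12.7 to 21.5 in aged hearts, with all 10 arrays well above background. With normexp background correction and an added offset of 50 the log2 difference was -0.58 and Vtn was not called. That offset is larger than every aged intensity given here and by itself makes the difference smaller.

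Mmp13 (ENSMUSG00000050578, chr9:7272514-7283333, plus strand), the collagenase, had the greatest spread between hearts of the 4 genes. Its log2 level was 7.37, 7.47, 7.55, 7.87 and 6.57 in 3m replicates 1 to 5, and 3.87, 4.30, 5.04, 7.14 and 5.84 in 20m replicates 1 to 5. The groups overlapped, since aged replicate 4 lay above young replicate 5, and the other 4 aged hearts lay below all young hearts. The mean was 7.37 ± 0.48 (SD, n = 5) in 3m and 5.24 ± 1.30 in 20m, a log2 difference of -2.13 with SE 0.51. The scanner intensity was 152, 155, 256, 333 and 116 in young hearts and 13.9, 19.7, 26.8, 114 and 46.9 in aged hearts. On that scale all 5 aged hearts lay below all 5 young hearts, with aged replicate 4 and young replicate 5 nearly equal. With normexp background correction and an added offset of 50 the log2 difference was -1.06. With the Gapdh ratio as a covariate it was -1.40 and Mmp13 was not called.

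The spread between hearts differed by gene and by age. The SD of Mmp13 among aged hearts was greater than that of 99.6% of tested mRNA probes, and among young hearts greater than that of 81.0%. Col15a1 had a smaller SD than most probes in young hearts, above 13.3% of them, and a larger one in aged hearts, above 92.1%, but 4 of the 5 aged values were not well above background and this aged SD is not a reliable measure of spread between hearts. The corresponding shares were 22.9% and 75.4% for Col4a2 and 39.7% and 50.6% for Vtn, whose hearts varied about as much at both ages. Among the 1613 mRNA probes called lower, ranked by log2 difference, Mmp13 stood at 101, Col4a2 at 132 and Vtn at 436, and Col15a1 is not ranked because most of its aged values were not well above background.

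The local background around each of the 4 spots is given as a description. Whether the scanner software subtracted this local value was not checked. Its mean intensity in aged and in young hearts was 18.6 and 20 at Col15a1, 18.3 and 18 at Col4a2, 18.2 and 18 at Mmp13, and 20 and 20.2 at Vtn.

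Aged replicate 4 was the highest of the 5 aged hearts for 4 of the 4 genes. Over all tested mRNA probes it was the highest aged heart for 22.5%, over the 1613 called lower for 34.0%, and over the 690 named probes for 35.7%. Aged replicate 5 was highest for a like 36.1% of the named probes, yet for none of the 4 matrix genes. Without aged replicate 4 the log2 differences were -2.18 for Col4a2, -1.65 for Vtn and -2.60 for Mmp13, where 1844 mRNA probes were called lower in place of 1613. No difference is given for Col15a1 here, because no other aged heart showed its probe well above background. This heart also had the lowest Gapdh 3′ to 5′ log2 ratio of the aged hearts, 2.33, with 2.40 in replicate 5, 2.48 in replicate 1, 2.70 in replicate 2 and 3.06 in replicate 3. Its log2 ratio for the Pgk1 control spots, 9.12, was the median of the aged hearts.

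**Figure D2:**
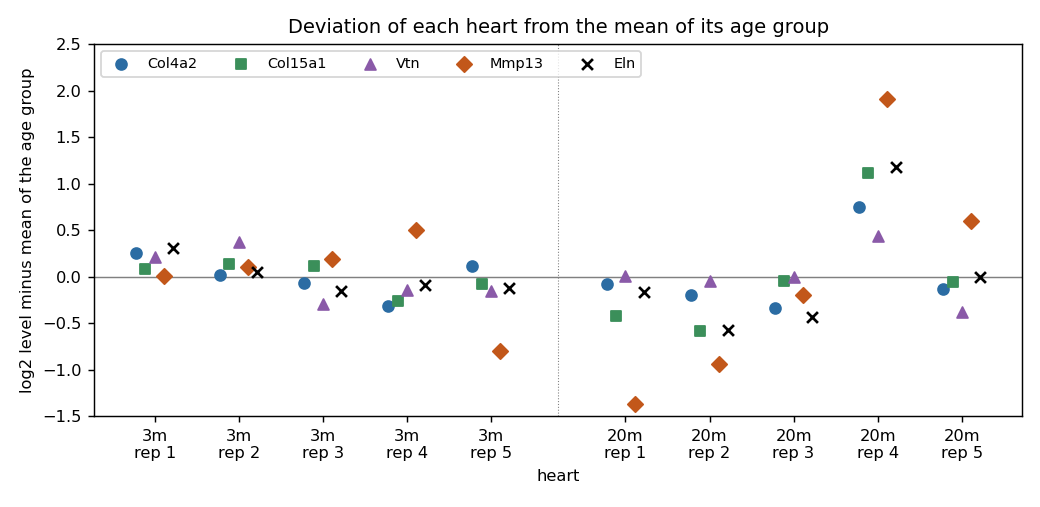
Log2 level of each gene in each heart minus the mean of its age group (vertical axis) for the 10 hearts (horizontal axis), with elastin (Eln) added for comparison. All 5 genes lie above their group mean in 20m replicate 4, by up to 1.90 for Mmp13, and below it in 20m replicates 2 and 3, and the farthest point among young hearts is Mmp13 in 3m replicate 5 (-0.80).

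With the group means removed, the genes went up and down together only in part. Pearson's r of the deviations over the 10 hearts, given as a description, was 0.83 for Col4a2 with Col15a1, 0.84 for Col15a1 with Mmp13, 0.64 for Col4a2 with Vtn, 0.56 for Col15a1 with Vtn, 0.54 for Col4a2 with Mmp13 and 0.30 for Mmp13 with Vtn. Without aged replicate 4 the same pairs gave 0.21, 0.53, 0.29, 0.05, -0.41 and -0.31. Spearman's rho over the 10 hearts was 0.59, 0.62, 0.44, 0.42, 0.21 and -0.04, and without the 2 hearts farthest from the median r lay between -0.28 and 0.51. For the 2 collagens r was 0.40 without the 2 farthest hearts. Aged replicate 4 was the only aged heart with Col15a1 well above background, so the values of Col15a1 without it include no aged heart in which its probe was clearly detected. All 4 probes share the same 10 RNA samples and arrays.

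Among the named probes well above background on all arrays, elastin, the core protein of elastic fibres, had the highest r with both collagens over the 10 hearts. Its r was 0.91 with Col4a2 and 0.91 with Col15a1, and 0.58 and 0.45 without aged replicate 4. Without that heart Eln no longer came first of the 3 probes named for either collagen, since Emilin2 gave 0.72 with Col4a2, and Mmp13 gave 0.53 and Armcx4 0.46 with Col15a1. All values for Col15a1 rest on aged hearts of which 4 did not show its probe well above background, so the order of its like probes is uncertain. The log2 level of Eln was 11.46 to 11.92 in young hearts, and 9.55, 9.15, 9.29, 10.90 and 9.71 in 20m replicates 1 to 5, so that the same aged heart stood above the others. After Eln, Col4a2 was most like Tmem35a (r = 0.88, and 0.56 without aged replicate 4) and Emilin2 (r = 0.82), a glycoprotein of elastic fibres, and Col15a1 most like Armcx4 (r = 0.90) and Mmp13. The pattern of Mmp13 was most like that of Cxcl9, a chemokine that attracts T cells (r = 0.93), Errfi1, an inhibitor of EGF receptor signalling (r = 0.92), and Lrrc55 (r = 0.89). Without aged replicate 4 these were 0.83 for Cxcl9, 0.84 for Errfi1 and 0.74 for Lrrc55. For Vtn the highest r over the 10 hearts was 0.73 for Rasl11b, 0.71 for Skida1 and 0.70 for Mfsd8, and without aged replicate 4 these were 0.61, 0.54 and 0.86. The probes named were those with the highest r over the 10 hearts among 528 or 529 for each gene.

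Other genes of the matrix were sought in 5 lists. Only genes with a probe named by the sheet could be read. The copy used holds lower probes alone and none with a log2 difference weaker than -1.35, against 1613 mRNA probes called lower here, so the counts below do not weigh rises against falls and miss genes that were lower by less. Of 31 basement membrane genes, 2 were named, Col4a2 and Col15a1, and both were called lower. Col4a1, the partner chain of Col4a2, had no named probe. The median log2 difference was -1.63 over the 690 named probes, which ranged from -5.30 to -1.35, and -0.05 over all tested mRNA probes.

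Of 28 genes of elastic fibres and fibrillar collagens, 2 were named and both were called lower, Eln with a log2 difference of -1.89 (SE 0.28) and Emilin2 with -1.42 (SE 0.26). Of 39 matrix proteases and inhibitors, 2 were named and called lower, Mmp13 and Adamts5, an enzyme that cleaves large proteoglycans. The log2 level of Adamts5 was 7.92 to 8.65 in young hearts, and 6.78, 5.41, 6.03, 7.78 and 7.75 in 20m replicates 1 to 5, a difference of -1.68 (SE 0.40). As with Mmp13, aged replicates 4 and 5 were the highest aged hearts. Both stayed below the young hearts here, whereas for Mmp13 replicate 4 reached the young range.

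Of 40 adhesive glycoproteins and receptors, 3 were named and called lower. They were Vtn, the laminin receptor subunit Itga6 with a log2 difference of -1.54 (SE 0.19), and the sarcoglycan Sgce, whose difference is not given because its probe was well above background in only 1 of 5 aged hearts. Of 23 genes of heparan sulfate synthesis and heparan or dermatan sulfate carriers, 3 were named and called lower. Esm1, a proteoglycan secreted by endothelial cells, differed by -1.74 (SE 0.42) with overlap between ages. The enzymes Glce and Ndst2 were not well above background in any aged heart and were at least 1.97-fold and at least 1.68-fold lower there, where the bound takes, array by array, the dimmest signal that still counted as well above background. The list medians ran from -1.90 for proteases to -1.55 for adhesive glycoproteins, near the median of all named probes, though the basement membrane and adhesive medians include Col15a1 and Sgce, which were mostly not detected in aged hearts, and that of heparan sulfate synthesis was -1.74, or -0.98 with Glce and Ndst2 at their bounds.

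**Figure D3:**
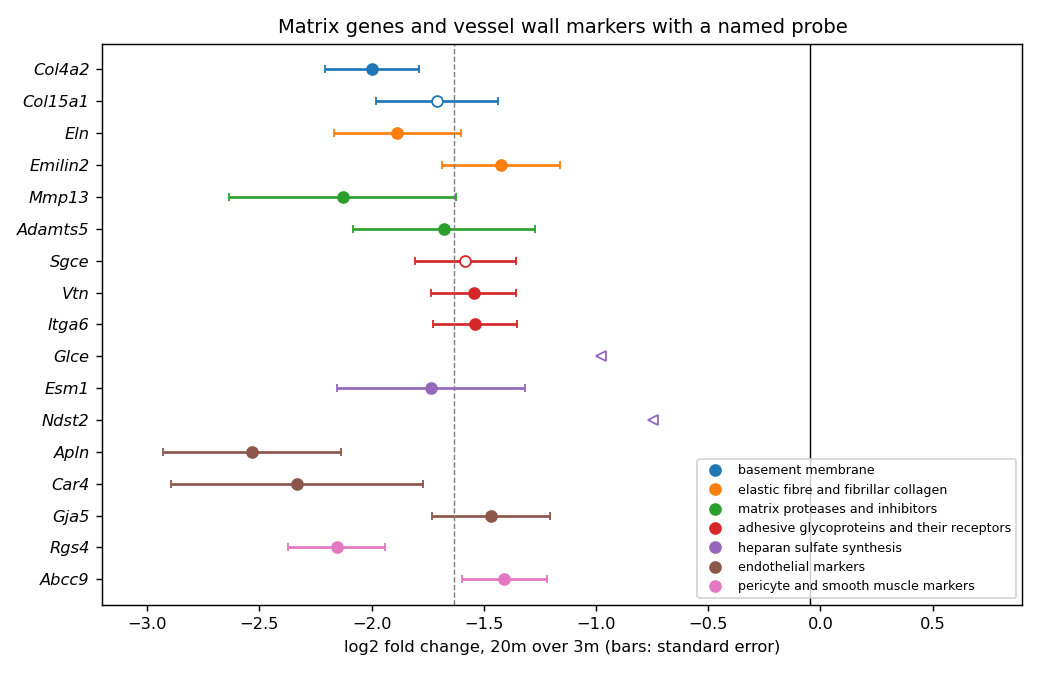
Log2 difference of 20m from 3m (horizontal axis) for each matrix gene and the leading vessel wall markers with a named probe (rows), coloured by list, with bars for the standard error. Open triangles are bounds for Glce and Ndst2, which no aged heart showed well above background, and open circles are Col15a1 and Sgce, which 1 of 5 aged hearts showed; the dashed line marks the median of the 690 named probes (-1.63) and the solid line that of all tested mRNA probes (-0.05), and every gene drawn lies left of the solid line because the sheet named only lower probes.

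Markers of the cells that make or border the basement membrane could likewise be read only where the sheet named them. Of 15 endothelial markers, 8 were named and all 8 were called lower, Esm1 among them, which follows from a sheet of lower probes alone. Pecam1, Cdh5 and Kdr were among those without a named probe and could not be read. Among the others, Tek, Dll4 and Calcrl are named for their weak signal, after their values were seen. Tek was not well above background in any aged heart and was at least 2.23-fold lower there, and Dll4 and Calcrl were well above background in 3 of 5 aged hearts. The median log2 difference over the 8 was -1.73, and -1.70 with Tek at its bound. The 3 with the highest mean log2 intensity were Apln, the ligand of the apelin receptor, with -2.53 (SE 0.39), Car4, a carbonic anhydrase of capillaries, with -2.33 (SE 0.56), and Gja5, a connexin of arterial endothelium, with -1.47 (SE 0.26). Of 9 genes listed as pericyte and smooth muscle markers, 3 were named and called lower, with -2.16 (SE 0.21) for Rgs4, -1.41 (SE 0.19) for Abcc9 and the value of Vtn given above. Which cells of the heart carried the mRNA of a listed marker was not tested, and a listed gene may also be expressed in other cells. Of 9 fibroblast, 8 macrophage and 3 adipocyte markers, 0 were named. Lymphocytes had 1 of 4 (Cd28, -1.39), epicardial cells 1 of 4 (Upk3b) and Schwann or neuronal cells 1 of 4 (Synpr), where the probes of Upk3b and Synpr were each well above background in only 1 of 5 aged hearts, so their differences are not given. Aged replicate 4 was the highest aged heart for 4 of 6 other matrix genes (Eln, Adamts5, Itga6 and Emilin2) and for 4 of 7 endothelial markers measured in aged hearts. The part of cell composition in the values of the 4 matrix genes was not tested.

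Both control ratios, read as measures of RNA quality, separated the ages completely. RNA quality by these spots and age therefore cannot be told apart. The Gapdh values are given above, and the log2 ratio for Pgk1 was 8.04 to 8.63 in 3m and 8.97 to 9.27 in 20m. Array position also moved with age. Of the young hearts, 2 were scanned on a first slide and 3 on a second slide together with all 5 aged hearts. Young hearts on the first slide read higher by 0.22 for Col4a2, 0.19 for Col15a1, 0.49 for Vtn and 0.09 for Mmp13, where the median was 0.18 over all tested mRNA probes and 0.52 over those called lower. Within the second slide, 3 young against 5 aged hearts, the log2 differences were -1.89 for Col4a2, -1.60 for Col15a1, -1.33 for Vtn and -2.07 for Mmp13. On that slide the 3 young hearts lay in row 1 with 1 aged heart, and the other 4 aged hearts lay in row 2. With slide row as a block over all 10 hearts the differences were -2.06 for Col4a2, -1.84 for Col15a1, -1.66 for Vtn and -2.42 for Mmp13. With slide as a block they were -1.91, -1.63, -1.35 and -2.09, and the 4 genes passed the limits in these 3 fits. The Col15a1 values given here are uncertain, because only 1 of 5 aged hearts showed its probe well above background. Over all tested mRNA probes 984 were called lower within the second slide, 1104 with slide as a block and 1921 with slide row as a block, and since the genes were selected for being lower, their own count supports nothing. With the Gapdh ratio added as a covariate, Col4a2 was at -1.52 and Vtn at -1.22 and both were called, while Col15a1 at -1.27 and Mmp13 at -1.40 were not. That covariate did not overlap between the ages.

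**Figure D4:**
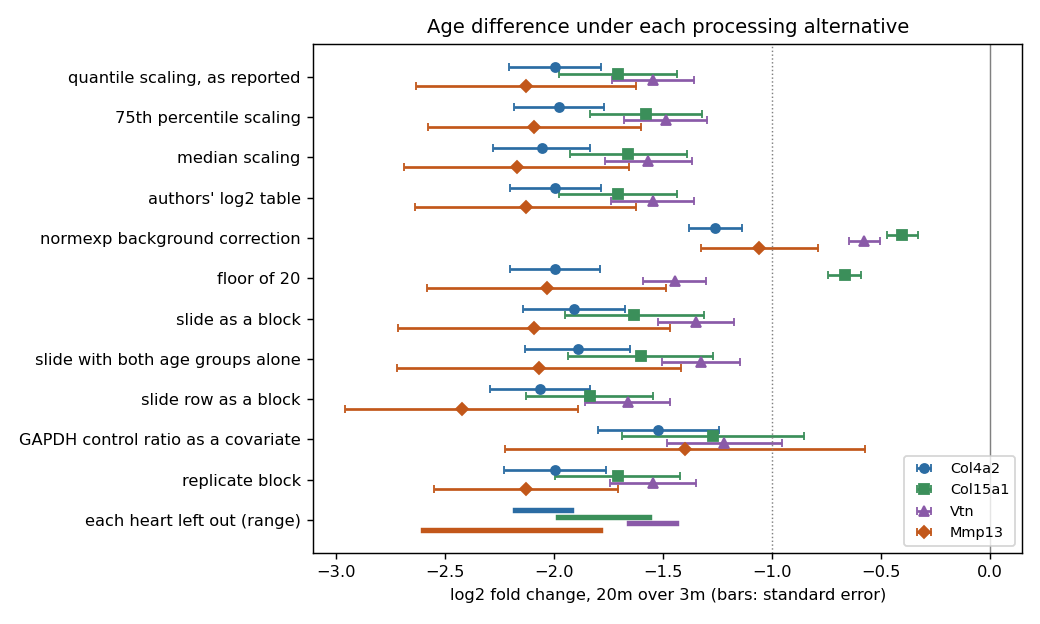
Log2 difference of 20m from 3m (horizontal axis) for the 4 genes under each way of processing the arrays (rows), with bars for the standard error and thick lines for the range when each heart was left out in turn. All values lie below 0 (solid line). With normexp background correction and an added offset of 50, Vtn (-0.58) and Col15a1 (-0.40) lie above the limit of -1 (dotted line). Col15a1 also does with a floor of 20 (-0.67).

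The promoters were compared for short motifs as a description, in the 250 bases before each start in RefSeq (GRCm38.p6), on both strands. The Mmp13 window is shown because it held 3 of the 5 motifs searched: the AP-1 motif TGACTCA, the Runx motif AACCACA and the TATA box core TATAAA, all in capitals, at 35 to 29, 119 to 113 and 16 to 11 bases before the start.
Mmp13, chr9:7272264-7272513, plus strand: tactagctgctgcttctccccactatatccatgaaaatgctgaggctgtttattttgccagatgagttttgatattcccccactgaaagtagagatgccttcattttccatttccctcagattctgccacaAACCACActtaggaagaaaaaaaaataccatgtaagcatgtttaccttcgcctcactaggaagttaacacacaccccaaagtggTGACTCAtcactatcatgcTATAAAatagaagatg
Over 32851 promoters, TGACTCA occurred in 4.46%, AACCACA in 4.40% and TATAAA in 12.4%. The Col4a2 window held the GC box GGGCGG at 192 to 187 and, on the other strand, at 48 to 43 bases before the start, and CCAAT at 32 to 28 bases, motifs found in 32.7% and 33.8% of promoters. Its start lies 21 bases from that of Col4a1 on the opposite strand, so the window lies within the beginning of Col4a1. The Vtn window held TATAAA at 135 to 130 bases, overlapping a copy on the other strand, and the Col15a1 window held none of the 5. The windows held 40.4% G and C for Mmp13, 50.4% for Vtn, 53.6% for Col15a1 and 73.6% for Col4a2. None of the 5 motifs was in all 4 windows, and TATAAA was in those of Mmp13 and Vtn.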

How the data were processed

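Heart RNA of 10 mice was hybridised to Arraystar mouse lncRNA arrays (Agilent, Cy3). The authors deposited scanner files, whose intensity values were background-subtracted by Agilent Feature Extraction (version 9.1 in the submitters' processing notes, a later version in the file headers) and not normalized between arrays, and a table of log2 values that the authors had background-corrected and quantile-normalized, with a floor near 5 on the linear scale. Per the methods, ribosomal RNA was removed before labelling.

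Here the scanner intensities of 60641 lncRNA and mRNA probes, with outlier spots set to missing (0 to 14 per array), were quantile-normalized, floored at 5 and log2-transformed. Quantile normalization assumes a common distribution, so a shift shared by all probes would be lost. Probes were kept if at least 5 of the 10 arrays showed them well above background, and these 41242 probes, 16720 of them mRNA probes, were fitted with limma 3.58.1 (R 4.3.3), without covariates. P-values were adjusted over mRNA probes, and a call needed an adjusted p under 0.05 and a log2 difference of at least 1. All 4 member probes passed the filter. The code was tested on simulated data. The number of arrays limits the precision, and nothing marks p-values as more than the spread between these mice.

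The scanner files name no genes. Names came from supplementary sheets of the study, which were held in part, and 672 of the 690 mRNA names matched RefSeq (GRCm38.p6). Coordinates and promoters are from that table. The members and gene lists were chosen with earlier results of these data known. Genes named are the 4 members, listed matrix genes with a named probe, up to 3 markers per cell type by mean level (and 3 endothelial markers named for weak signal after their values were seen), and the 3 probes with the highest Pearson r of deviations from the age means. Some listed genes without a named probe are mentioned only as absent. Groups and replicates followed the sample labels. Alternatives were other scalings, the authors' table, normexp on median spot signals with an added offset of 50, floors of 1 and 20, and other detection filters. Others were outlier spots kept, another test per probe, p adjusted over all probes, no fold limit, blocks for replicate, slide and slide row, the Gapdh control ratio as a covariate, and leaving out each heart.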

Additional observations from a re-analysis of the deposited data

Results flagged for a closer look

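The Col4a2 level of 20m replicate 4 stood apart from the other aged hearts, at 6.49 against 5.40 to 5.67, a gap of 0.758 of the whole range of the group, above the critical value for 5 hearts. It was the 1 such case in 22 groups of 5 hearts over 12 matrix genes, where chance gives about 1 in 20 groups. Without this heart the log2 difference of Col4a2 was -2.18 in place of -1.996. The same heart was the highest aged heart for Col15a1, Vtn and Mmp13, where its distance from the others was not large enough by this measure.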

How the results depend on the processing

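The 4 genes stayed lower in aged hearts under every alternative that kept their probe, and no direction reversed. With normexp background correction and an added offset of 50 the log2 differences were -1.26 for Col4a2, -0.40 for Col15a1, -0.58 for Vtn and -1.06 for Mmp13. In that setting 2 members were called lower, and 547 mRNA probes were called lower and 247 higher in place of 1613 and 669. With the Gapdh ratio added as a covariate Col4a2 was at -1.52 and Vtn at -1.22, 2 members were called, and 532 probes were called lower and 540 higher, so the lower probes no longer outnumbered the higher. A floor of 20 gave -0.67 for Col15a1, 3 members called and 430 probes higher, and requiring all 10 arrays well above background left out Col15a1. Without a fold limit 3695 probes were called lower and 2124 higher, and on the slide with both ages alone 984 were called lower. Leaving out each heart gave -2.18 to -1.92 for Col4a2, -1.98 to -1.57 for Col15a1, -1.65 to -1.44 for Vtn and -2.60 to -1.79 for Mmp13, 4 to 4 members called, 1249 to 1844 probes called lower and 577 to 760 higher. The value of -1.98 for Col15a1 leaves out 20m replicate 4, the only aged heart with its probe well above background, and says nothing about stability. The offset of 50 in the normexp setting by itself makes log2 differences of dim probes smaller. Its part was not separated from that of the correction. The cause of the shifts was otherwise not tested, apart from the fewer arrays or probes that a setting itself leaves.

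Same-numbered hearts of the 2 ages did not deviate together (correlations from -0.36 to 0.27 over 41242 probes), so the replicate numbers were not taken as pairs. With the replicate block the log2 differences stayed at -1.996, -1.71, -1.55 and -2.13, 4 members were called lower, and 1612 probes were called lower and 669 higher. Signal over background limits Col15a1, since 4 of its 5 aged values were not well above background.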
